A study of Homo sapiens with 4 samples.

Results

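The synthesis, transport and sensing of prostaglandins are described here through 10 of the 58735 genes of the count table: PTGS1 and PTGS2 (cyclooxygenases), PTGES, PTGES2 and PTGES3 (terminal prostaglandin E synthases), SLCO2A1 and ABCC4 (transporters), HPGD (the enzyme that inactivates prostaglandins), and PTGER2 and PTGER4 (receptors of prostaglandin E2). The 10 genes were chosen by name with their changes after mebendazole in these libraries already known, so those changes are given as a description without a test. Human MDA-MB-231 and SUM159 cells, both established lines of triple-negative breast cancer, were grown for 72 h with 1 μM mebendazole (MBZ) or with its vehicle dimethyl sulfoxide (DMSO), and enriched mRNA was sequenced. MBZ is an anthelmintic drug that binds tubulin. The design has 1 library for each of the 4 combinations of line and treatment, so no spread between cultures could be measured, and any bulk difference may come from fewer cells carrying a transcript or from less of it per cell, which cannot be told apart.

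Prostaglandins are short-lived lipid signals made from arachidonic acid. Phospholipases release the acid from membranes, the cyclooxygenases COX-1 (PTGS1, usually constitutive) and COX-2 (PTGS2, usually inducible) turn it into prostaglandin H2, and terminal synthases turn that into prostaglandin E2, prostacyclin, thromboxane and others. Prostaglandin E2 leaves the cell partly through ABCC4, acts on receptors that include EP2 (PTGER2) and EP4 (PTGER4), and is cleared by uptake through SLCO2A1 followed by oxidation by HPGD. COX-2 and prostaglandin E2 are known in breast cancer for their links with invasion and inflammation.

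The libraries held between 17143139 and 24897586 counts, and a gene with 0 counts may still have a level of up to 0.12 to 0.175 CPM, the count scaled to a fixed library total. Levels below are CPM with TMM factors, which align the bulk of the genes between libraries. Genes with at least 1 count numbered 22278 in the DMSO library and 24416 in the MBZ library of MDA-MB-231 cells, and 23015 and 27239 in those of SUM159 cells. Marker genes were looked up beside the cell line labels, and they do not test the treatment labels. PGR had 0 counts in all 4 libraries and ESR1 had 18 or fewer, while ERBB2, the other receptor that defines the triple-negative class, had 1216 to 1996 counts. VIM, a mesenchymal marker, had 20703 counts or more in each library, and of the 3 epithelial markers CDH1 had 12 or fewer, EPCAM had 144 and 190 in the MDA-MB-231 libraries and 6 and 9 in the SUM159 libraries, and KRT18 had 4197 or more. Of the endothelial markers, PECAM1 had 365 and 328 counts with DMSO and MBZ in MDA-MB-231 and 655 and 825 in SUM159 cells. CDH5, the other, had 6 or fewer in each library.

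The sequences just upstream of a RefSeq start of each cyclooxygenase gene are shown, and their part in the changes after MBZ was not tested. They are the 250 bases before the start of transcription in RefSeq (GRCh38.p14), at chr1:186680424-186680673 on the minus strand for PTGS2 and at chr9:122370283-122370532 on the plus strand for PTGS1, the first of its windows in RefSeq. The GENCODE model of PTGS2 starts further upstream, at chr1:186680922, so by that model the PTGS2 window lies inside the gene. Capitals mark matches, on either strand, to the TATA box letters TATAAA, the cAMP response element half-site CGTCA and the C/EBP letters TTNNGNAA.
PTGS2: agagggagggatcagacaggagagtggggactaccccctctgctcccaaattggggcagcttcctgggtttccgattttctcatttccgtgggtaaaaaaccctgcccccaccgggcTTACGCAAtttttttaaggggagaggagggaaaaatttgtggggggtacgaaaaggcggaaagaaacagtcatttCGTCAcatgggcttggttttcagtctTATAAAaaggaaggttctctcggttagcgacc
PTGS1: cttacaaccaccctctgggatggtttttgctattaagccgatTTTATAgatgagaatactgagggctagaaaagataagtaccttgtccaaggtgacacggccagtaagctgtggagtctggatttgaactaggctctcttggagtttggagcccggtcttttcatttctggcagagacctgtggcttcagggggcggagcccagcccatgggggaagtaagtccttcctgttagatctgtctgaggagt
The PTGS2 window holds TATAAA from 32 to 27 bases before the start, CGTCA from 58 to 54 bases before it, overlapped by the E-box letters CANNTG from 55 to 50, and a C/EBP match from 133 to 126. The PTGS1 window holds TATAAA only in the reverse orientation, from 208 to 203 bases before the start, and neither of the other marked motifs, while another RefSeq window of PTGS1, not printed, holds a C/EBP match from 115 to 108 bases before its start. Of 35116 RefSeq promoter windows of this length, 10.7% hold TATAAA, 21.2% CGTCA, 33.2% the C/EBP letters and 61.8% the E-box letters. Windows were found for 9 of the 10 genes, 13 in all, and TATAAA was in those of PTGS1 and PTGS2 only, CGTCA in those of 5 genes, the C/EBP letters in those of 3 and the E-box in those of 5. A consensus for NF-kB, held by 10% of all windows, was found for 4 genes, and the AP-1 letters TGANTCA, held by 6.6%, for none. The shares over all promoters are by window and not by gene. Of the 13 windows, 2 held TATAAA, 5 CGTCA, 3 the C/EBP letters, 6 the E-box letters and 4 the NF-kB consensus. These are matches of letters, and binding was not measured.

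**Figure D1:**
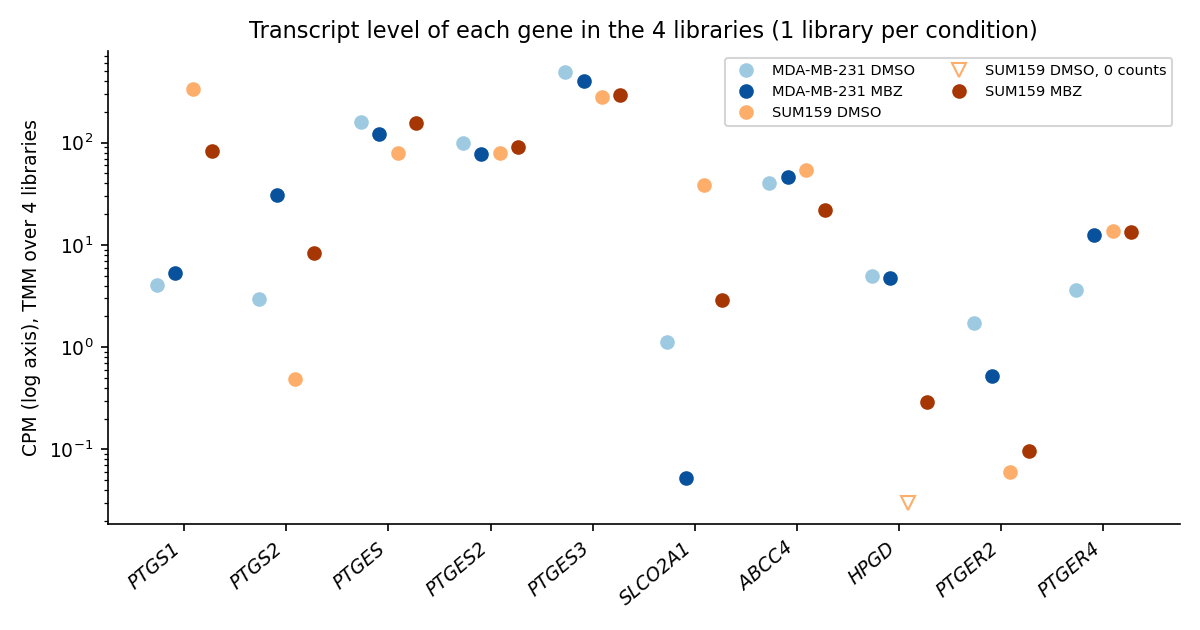
Level of each of the 10 genes (CPM, log scale, TMM scaling over the 4 libraries) in each library, with 1 point per library and no error bar because each condition has 1 library, and an open triangle for a library with 0 counts. PTGS2 is higher and SLCO2A1 lower after MBZ in both lines, and PTGS1 is furthest apart between the DMSO libraries among genes with counts in both, at 4.04 CPM in MDA-MB-231 and 339 CPM in SUM159 cells.

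Before any drug, the lines carried different sets of these genes. The SUM159 DMSO library had 83.6-fold more PTGS1 than the MDA-MB-231 DMSO library (log2 difference 6.39, 95% counting interval 6.09 to 6.70, which covers counting error only), 34.1-fold more SLCO2A1 (5.09, 4.54 to 5.73) and 3.80-fold more PTGER4 (1.93, 1.56 to 2.31). MDA-MB-231 had more PTGS2 (2.93 against 0.483 CPM), PTGES (158 against 79.6 CPM) and PTGES3 (488 against 283 CPM). HPGD had 116 counts and PTGER2 had 40 in the MDA-MB-231 DMSO library, against 0 and 1 in that of SUM159 cells. MDA-MB-231 thus carried both EP receptors and HPGD at low levels, and SUM159 cells carried PTGER4 but almost no PTGER2 or HPGD. The lines come from different sources, so the line and its culture cannot be told apart.

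Per kilobase of exon, the scale on which genes can be compared with each other, the terminal synthases stood above the other 7 of the 10 genes in MDA-MB-231. In the DMSO library of that line PTGES3 had 143.6 CPM per kb, PTGES 83.7 and PTGES2 16.3, while PTGS1 had 0.699 and PTGS2 0.534. In the SUM159 DMSO library PTGES3 had 83.1 CPM per kb, PTGS1 58.6, PTGES 42.1 and PTGES2 13.1. PTGS1 there thus lay between PTGES3 and PTGES and above PTGES2, and PTGS2, at 0.0881 CPM per kb, was far below.

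PTGS2 (ENSG00000073756, chr1:186671791-186680922, minus strand, GRCh38), which encodes the inducible COX-2, was higher after MBZ in both lines. In MDA-MB-231 it had 68 counts (2.93 CPM) with DMSO and 590 (31.0 CPM) with MBZ, a 10.5-fold difference (log2 3.39, counting interval 3.03 to 3.77). In SUM159 it had 8 counts (0.483 CPM) with DMSO and 173 (8.39 CPM) with MBZ, a 17.1-fold difference (log2 4.10, 3.11 to 5.35). Among genes ranked by change from the highest it stood at place 80 of 15142 in MDA-MB-231 and at place 112 of 15674 in SUM159 cells. Despite the larger fold in SUM159 cells, the MBZ level there was below that of MDA-MB-231. The difference between the log2 changes of the lines was 0.71, with an approximate counting interval of -0.37 to 1.80. This interval holds 0 and rests partly on 8 counts in the SUM159 DMSO library. Its exons share 219 bases with those of the antisense gene PACERR, which had 1, 6, 0 and 2 counts in the libraries MDA-MB-231 DMSO, MDA-MB-231 MBZ, SUM159 DMSO and SUM159 MBZ.

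PTGS1 (ENSG00000095303, chr9:122370530-122395703, plus strand), which encodes COX-1, moved unlike PTGS2. In SUM159 cells, where it was abundant, it had 5611 counts (339 CPM) with DMSO and 1719 (83.4 CPM) with MBZ, 4.06-fold lower after MBZ (log2 -2.02, counting interval -2.10 to -1.95). In MDA-MB-231 it had 94 counts (4.04 CPM) and 100 counts (5.26 CPM), a log2 change of 0.36 with an interval of -0.059 to 0.78. Scaled by total counts this value is 0.63, past the 1.5-fold threshold. The change was 2.38 lower on the log2 scale in SUM159 than in MDA-MB-231 (difference -2.38, interval -2.80 to -1.97).

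The leukocyte markers PTPRC and CD14 were lower with PTGS1 in SUM159 cells. Their summed level was 41.8 CPM in the SUM159 DMSO library and 8.24 in the SUM159 MBZ library, and 2.62 and 3.31 CPM in the MDA-MB-231 libraries. In SUM159 cells PTPRC had 216 counts with DMSO and 60 with MBZ, and CD14 had 477 and 110. In MDA-MB-231 PTPRC had 8 and 23 counts (log2 1.78, 0.58 to 3.17) and CD14 had 53 and 40 (log2 -0.13). Of 15 further leukocyte genes looked up after those values were seen, 10 had 3 counts or fewer in the SUM159 DMSO library, and TYROBP, SPI1, CD53, LYZ, AIF1, CD3E and MS4A1 had 0 there. Of those with more counts in SUM159 cells, CD37 had 235 counts with DMSO and 120 with MBZ, the direction of PTPRC and CD14. The other 4 with over 3 counts under DMSO were higher after MBZ, as LAPTM5 with 95 and 258, ITGAM with 39 and 66, CSF1R with 21 and 54 and CD163 with 13 and 74, and CORO1A had 1 and 40. The 15 genes summed to 24.7 CPM with DMSO and 31.1 CPM with MBZ in SUM159 cells, and to 274 and 151 CPM in MDA-MB-231. LAPTM5 carried most of the latter sums, with 6190 and 2707 counts. Without it the sums were 19.0 and 18.6 CPM in SUM159 cells, and 7.96 and 8.89 CPM in MDA-MB-231. PTPRC and CD14 were lower in the SUM159 MBZ library, as were SLCO2A1, ABCC4, PTGIR and ALOX5, described below, and 21.7% of all genes compared in that line. The part of other cells in these results and in that of PTGS1 was not tested.

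PTGS2 took a larger share of the cyclooxygenase reads with MBZ in both lines, from different starting points. In MDA-MB-231 PTGS2 made up 42.0% of the PTGS1 and PTGS2 reads with DMSO (Clopper-Pearson 95% interval 34.3 to 50) and 85.5% with MBZ (82.7 to 88.0). In SUM159 cells the share was 0.142% (0.0615 to 0.28) with DMSO and 9.14% (7.88 to 10.5) with MBZ. Per kilobase, PTGS2 went from 0.763 to 6.22 times the level of PTGS1 in MDA-MB-231. PTGS1 went from 665 to 9.42 times the level of PTGS2 in SUM159 cells and remained the more abundant of the pair. The summed cyclooxygenase level moved in opposite directions, from 1.23 to 6.57 CPM per kb in MDA-MB-231 and from 58.6 to 15.9 CPM per kb in SUM159 cells.

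**Figure D2:**
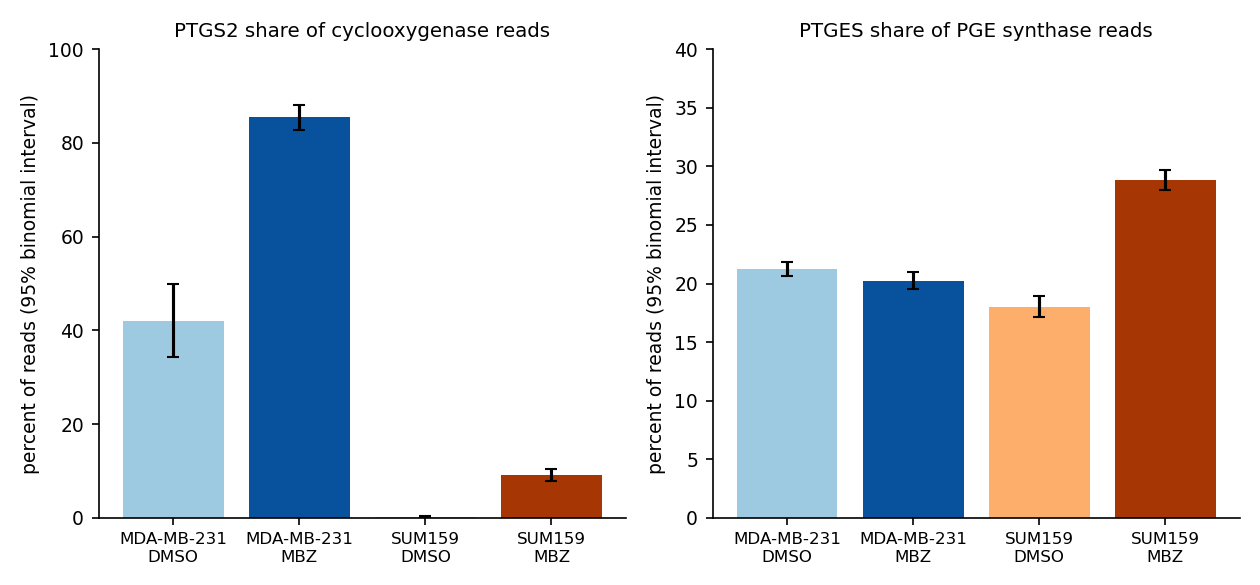
Left, PTGS2 as a percentage of PTGS1 and PTGS2 reads, and right, PTGES as a percentage of PTGES, PTGES2 and PTGES3 reads, in each of the 4 libraries, with exact 95% binomial intervals that cover counting error only. The PTGS2 share is higher with MBZ in both lines (42.0% to 85.5% and 0.142% to 9.14%), while the PTGES share differs mainly in SUM159 cells (18.0% to 28.8%).

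PTGES (ENSG00000148344, chr9:129738331-129753042, minus strand) encodes the inducible microsomal synthase that usually acts with COX-2, and its change had opposite signs in the lines. In MDA-MB-231 it had 3677 counts (158 CPM) with DMSO and 2289 (120 CPM) with MBZ, a log2 change of -0.41 (-0.49 to -0.34) that stayed within 1.5-fold. In SUM159 it had 1318 counts (79.6 CPM) and 3205 (155 CPM), 1.95-fold higher after MBZ (log2 0.97, 0.87 to 1.06). The MBZ libraries of the lines thus ended closer to each other, at 120 and 155 CPM, than the DMSO libraries had been.

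PTGES2 and PTGES3, the synthases usually made at a constant level, changed less. PTGES2 (ENSG00000148334, chr9:128120693-128128462, minus strand), bound to membranes of the Golgi, had 2300 and 1471 counts with DMSO and MBZ in MDA-MB-231 (log2 -0.37) and 1319 and 1873 in SUM159 cells (log2 0.19). PTGES3 (ENSG00000110958, chr12:56663341-56688408, minus strand), which is also the Hsp90 co-chaperone p23, had 11349 and 7560 counts in MDA-MB-231 (log2 -0.31) and 4680 and 6044 in SUM159 cells (log2 0.053, interval -0.0026 to 0.11). Both stayed within 1.5-fold in both lines. The share of PTGES among the reads of the 3 synthases was 21.2% under DMSO and 20.2% under MBZ in MDA-MB-231, and 18.0% and 28.8% in SUM159 cells.

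SLCO2A1 (ENSG00000174640, chr3:133932701-134052184, minus strand) encodes the transporter that takes prostaglandins back into cells, and it was lower after MBZ in both lines. In SUM159 it had 636 counts (38.4 CPM) with DMSO and 60 (2.91 CPM) with MBZ, 13.2-fold lower (log2 -3.72, counting interval -4.13 to -3.34), at place 59 from the lowest of 15674 genes. In MDA-MB-231 it had 26 counts (1.12 CPM) with DMSO and 1 (0.0526 CPM) with MBZ, a ratio of 19.4 whose counting interval runs from 3.54 to 883. The MDA-MB-231 value rests on 1 count and depends on the prior count added, and its log2 value of -4.28 moved by 1.23 with a prior count of 2.

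ABCC4 (ENSG00000125257, chr13:95019835-95301475, minus strand), an ATP-driven exporter that carries prostaglandin E2 among other substrates, was lower after MBZ in SUM159 cells, where it had 897 counts (54.2 CPM) with DMSO and 456 (22.1 CPM) with MBZ (2.45-fold, log2 -1.29, -1.46 to -1.13). In MDA-MB-231 it had 940 and 868 counts (40.4 and 45.7 CPM), a log2 change of 0.16 (0.023 to 0.29). The change in SUM159 cells was thus 1.45 lower on the log2 scale (difference -1.45, interval -1.66 to -1.24). SUM159 cells had less of both transporters after MBZ, and MDA-MB-231 had less of SLCO2A1 alone by the 1.5-fold threshold.

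HPGD (ENSG00000164120, chr4:174490175-174523154, minus strand), the dehydrogenase that starts the breakdown of prostaglandin E2, had 116 counts (4.99 CPM) under DMSO and 90 (4.73 CPM) under MBZ in MDA-MB-231. The log2 change of -0.094 had an interval of -0.51 to 0.32, so a difference was not detectable at this depth. In SUM159 it had 0 counts with DMSO and 6 with MBZ, too few to compare. Its exons overlap those of the antisense gene ENSG00000251584, which had 0 counts in each library.

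The EP2 and EP4 receptors, both of which raise cyclic AMP when prostaglandin E2 binds, moved apart in MDA-MB-231. PTGER4 (ENSG00000171522, chr5:40679915-40693735, plus strand) had 84 counts (3.61 CPM) with DMSO and 235 (12.4 CPM) with MBZ there, 3.38-fold higher (counting interval 2.62 to 4.39). PTGER2 (ENSG00000125384, chr14:52314305-52328598, plus strand) had 40 counts (1.72 CPM) and 10 (0.526 CPM), 3.29-fold lower (log2 -1.72, -2.89 to -0.70). In SUM159 cells PTGER4 had 228 and 274 counts (13.8 and 13.3 CPM), a log2 change of -0.051 (-0.31 to 0.21). PTGER2 had 1 count with DMSO and 2 with MBZ in SUM159 cells, and no comparison was made. With MBZ, PTGER4 reached 12.4 CPM in MDA-MB-231, close to the 13.3 CPM of SUM159 cells, where DMSO libraries had stood at 3.61 and 13.8 CPM.

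**Figure D3:**
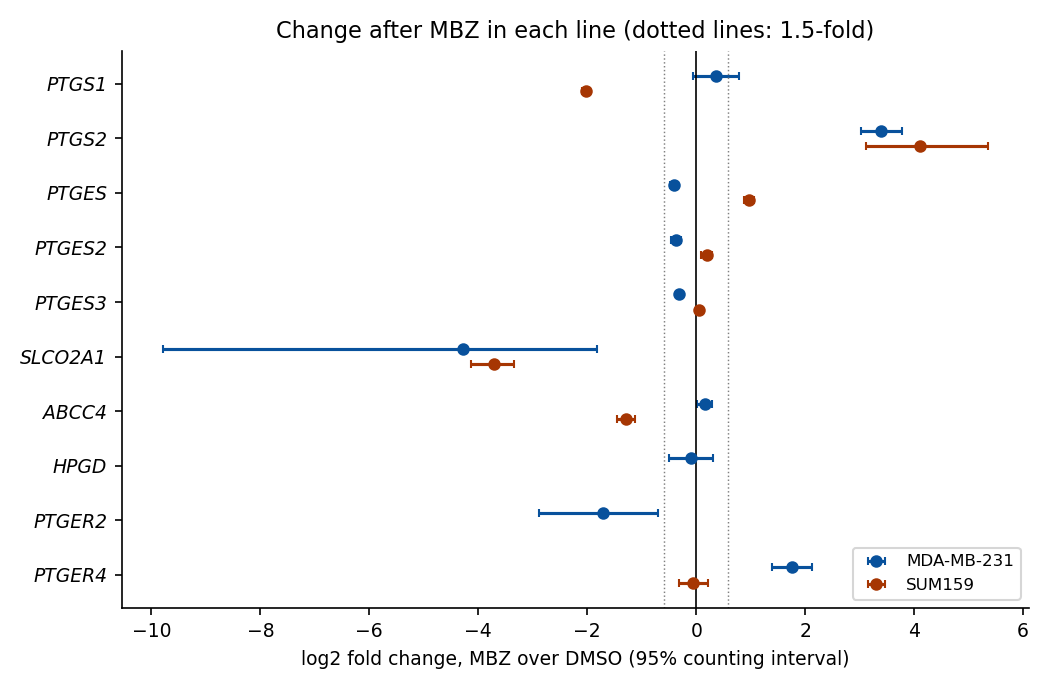
Log2 change (MBZ over DMSO) of each gene in each line, with 95% counting intervals as bars and dotted lines at a 1.5-fold change. PTGS2 (3.39 and 4.10) is right of the upper line in both lines of cells and SLCO2A1 (-4.28 and -3.72) left of the lower line in both, while PTGES and ABCC4 have opposite signs. HPGD and PTGER2 have no SUM159 value because they had too few counts.

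Genes were counted where the change was at least 1.5-fold and the mean count of the line's libraries was 10 or more. By this rule, 2 of the 10 genes were higher in MDA-MB-231 (PTGS2 and PTGER4) and 2 were lower (SLCO2A1 and PTGER2). Of all 15142 genes compared in that line, 18.3% were higher and 15.8% lower by this threshold. In SUM159 cells, where 8 of the 10 could be compared, 2 were higher (PTGS2 and PTGES) and 3 were lower (PTGS1, SLCO2A1 and ABCC4). Of all 15674 genes compared there, 21.5% were higher and 21.7% lower. Since the genes were selected on these changes, nothing is read from the counts. The median log2 change of those compared was -0.20 in MDA-MB-231, against -0.018 over all genes, and 0.00080 in SUM159 cells, against -0.034.

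PTGS2 was the one gene of the 10 higher by 1.5-fold in both lines, which 6.12% of the 13733 genes compared in both were, and SLCO2A1 the one lower in both, as were 4.71%. Genes with few reads were more often higher by the threshold. Of genes with a mean of 10 to 100 counts, 38.5% were higher in MDA-MB-231 and 39.6% in SUM159 cells, against 10.3% and 13.2% of genes above 100 counts. The shares lower were 16.6% and 23.4%, against 15.4% and 20.9% above 100 counts. PTGS2 in SUM159 cells and SLCO2A1 and PTGER2 in MDA-MB-231 are in this low class, so with a minimum mean of 100 counts neither PTGS2 nor SLCO2A1 is called in both lines.

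The 45 other genes of the arachidonate, prostanoid and lipoxygenase routes give the surroundings of these 10. In MDA-MB-231 27 of them could be compared, of which 7 were higher, 5 lower and 15 neither by 1.5-fold, with a median log2 change of 0.38, beside 18.3% higher and 15.8% lower over all genes. In SUM159 cells 31 could be compared, of which 5 were higher, 12 lower and 14 neither, with a median of -0.43, beside 21.5% higher and 21.7% lower over all genes. Scaled by total counts instead of TMM, the MDA-MB-231 numbers were 14 higher against 2 lower, and the SUM159 numbers 6 against 7. That scaling raised the median over all genes by 0.27 in MDA-MB-231 and 0.30 in SUM159 cells. The shares over all genes were not computed for it, so nothing about the pathway is read from these numbers. Of the 27 genes compared in both lines, 3 were higher in both (PLA2G4A, MGLL and ALOXE3) and 1 was lower in both (ZFP36L1), beside 6.12% and 4.71% of all genes, and 2 went in opposite directions (PLA2G4C and TBXAS1). With a minimum mean of 100 counts only MGLL is left as higher in both. ALOXE3, with a mean of 10 counts in MDA-MB-231, passed the filter there only through its MBZ library. The SUM159 call of PLA2G4C is lost with scaling by total counts and at a fold change of 2. At a fold change of 2 this leaves TBXAS1 as the gene of opposite direction. With scaling by total counts AKR1C3 and PTGFR join TBXAS1, both higher in MDA-MB-231 and lower in SUM159 cells.

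Upstream of the cyclooxygenases, 4 of 6 genes of arachidonate release were higher in MDA-MB-231 and none was lower, beside 18.3% and 15.8% of all genes. FAAH and PLA2G4C are in the class of 10 to 100 counts, where 38.5% were higher, and MGLL passed the threshold narrowly, at 1.51-fold, and not with DESeq2 size factors (log2 0.54). PLA2G4A, the cytosolic phospholipase A2 that frees arachidonate, had 99 counts under DMSO and 202 under MBZ in MDA-MB-231 (log2 1.30, 0.95 to 1.66). It had 6 and 41 counts in SUM159 cells (log2 2.44, 1.21 to 3.98), with a mean of 23.5 counts there, in the class of 10 to 100 counts where 39.6% of genes were higher. That SUM159 value passed the filter only through its MBZ library, and a minimum mean of 100 counts removes it. MGLL, which splits monoacylglycerols and can supply arachidonate, had 1333 and 1664 counts in MDA-MB-231 (log2 0.59) and 1589 and 3484 in SUM159 cells (log2 0.82). PLA2G4C, another cytosolic phospholipase A2, went in opposite directions, with 13 and 129 counts in MDA-MB-231 (log2 3.57) and 406 and 314 in SUM159 cells (log2 -0.69), and its exons share 326 bases with the antisense gene PLA2G4C-AS1. FAAH, which splits fatty acid amides, had 22 and 46 counts in MDA-MB-231 (log2 1.33). In SUM159 cells 2 of 7 genes of this group were higher (PLA2G4A and MGLL) and 2 were lower (PLA2G4C and PLA2G10), beside 21.5% and 21.7% of all genes. PLA2G10, named after its values were seen, had 12 and 9 counts, and its interval (log2 -2.16 to 0.64) holds 0.

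Of the synthases of other prostanoids, 2 of the 4 compared in MDA-MB-231 were lower and none was higher, beside 15.8% lower and 18.3% higher over all genes. In SUM159 cells 1 of 4 was higher and 2 were lower, beside 21.5% and 21.7%. TBXAS1, thromboxane synthase, had 1652 counts under DMSO and 461 under MBZ in MDA-MB-231 (log2 -1.57, -1.72 to -1.42). In SUM159 it had 116 and 309 counts (log2 1.10, 0.78 to 1.42), the opposite sign, as PTGES also had. PRXL2B, a prostaglandin F synthase, was lower in MDA-MB-231 (1525 and 593 counts, log2 -1.09). AKR1C3, which also makes prostaglandin F, was lower in SUM159 cells (4583 and 2533 counts, log2 -1.17). Its log2 change in MDA-MB-231 was 0.42 (0.22 to 0.62), of the opposite sign and within 1.5-fold.

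The 8 further genes listed with the receptors were those of EP1 and EP3 (PTGER1 and PTGER3), of other prostanoids (PTGDR, PTGDR2, PTGFR, PTGIR and TBXA2R) and PTGFRN, which binds to and inhibits the prostaglandin F receptor. In MDA-MB-231 3 of the 8 had enough counts to compare (PTGER1, PTGFR and TBXA2R) and none passed 1.5-fold, beside 18.3% higher and 15.8% lower over all genes. Scaling by total counts took PTGER1 and PTGFR past the threshold there, both higher. In SUM159 cells 3 of the 5 compared were lower (PTGIR, PTGFR and PTGFRN) and 1 was higher (PTGER1), beside 21.7% lower and 21.5% higher over all genes. PTGER1 passed the filter there only through its MBZ library, in the class of 10 to 100 counts where 39.6% of genes were higher. PTGIR, the prostacyclin receptor, had 477 counts with DMSO and 84 with MBZ there (7.06-fold lower, log2 -2.82, -3.17 to -2.49), against 0 and 1 in MDA-MB-231. PTGFRN had 5432 and 2904 counts (log2 -1.22), against 0 and 2 in MDA-MB-231. PTGER1, the EP1 receptor, had 0 counts under DMSO and 23 under MBZ in SUM159 cells, at least 6.16-fold higher against a floor of 3 counts, which leaves out the counting error of the MBZ library, and the exact counting interval of the ratio starts at 4.62-fold.

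The lipoxygenase branch, which uses the same arachidonate for leukotrienes and related lipids, had 3 of 9 genes with enough counts to compare in MDA-MB-231 (1 higher, none lower) and 4 in SUM159 cells (1 higher, 2 lower). The shares over all genes were again 18.3% and 15.8%, and 21.5% and 21.7%. LTA4H, leukotriene A4 hydrolase, was the abundant member and was chosen after its values were seen. It had 3755 and 2318 counts in MDA-MB-231 (log2 -0.42, within 1.5-fold) and 4188 and 2365 in SUM159 cells (log2 -1.14, -1.21 to -1.07). ALOX15 and ALOX15B, with PLA2G5, HPGDS and PTGDR of the other groups, had under 3 counts in each library. ALOX5, the first enzyme of leukotriene synthesis, had 25 counts under DMSO and 3 under MBZ in SUM159 cells, a ratio of 9.96 with a counting interval of 3.17 to 53.7. It passed the filter there only through its DMSO library. ALOXE3, a lipoxygenase of the skin barrier, had 0 and 20 counts in MDA-MB-231, at least 8.05-fold higher against the same floor (the exact interval starts at 5.96-fold), and 7 and 50 in SUM159 cells (log2 2.5).

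Of 7 genes whose products are known to act on PTGS2 transcription or on the stability of its mRNA, 1 was higher and 2 were lower in MDA-MB-231, and none was higher and 2 were lower in SUM159 cells. Over all genes 18.3% were higher and 15.8% lower in the former, and 21.5% and 21.7% in the latter. CEBPB, a transcription factor of the C/EBP family, had 2227 counts under DMSO and 4669 under MBZ in MDA-MB-231 (log2 1.34, 1.27 to 1.41), and a log2 change of -0.16 in SUM159 cells. CEBPD, of the same family, was lower in SUM159 cells (5826 and 2761 counts, log2 -1.39). ELAVL1, which binds and stabilises AU-rich mRNAs, was lower in MDA-MB-231 (4956 and 2377 counts, log2 -0.79) and had a log2 change of 0.19 in SUM159 cells. ZFP36L1, which promotes the decay of such mRNAs, was lower in both lines (log2 -0.59 and -0.60) by a narrow margin, at 1.51-fold in each. The ZFP36L1 call was lost in MDA-MB-231 with TMM over the 4 libraries (log2 -0.57) and total-count scaling ended it in both lines (-0.32 and -0.30).

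**Figure D4:**
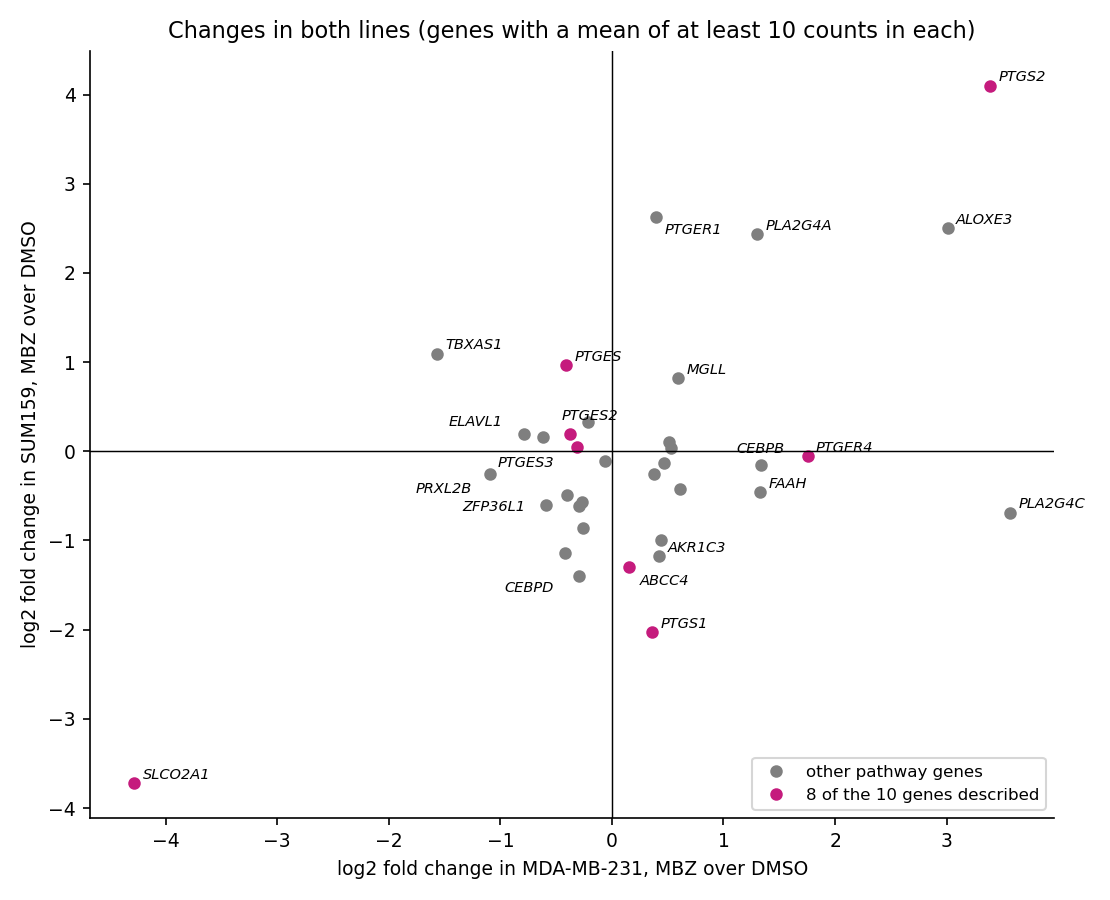
Log2 change (MBZ over DMSO) in MDA-MB-231 (x axis) against SUM159 cells (y axis) for 8 of the 10 genes described and the 27 other pathway genes compared in both lines, 1 point per gene. PLA2G4A (1.30, 2.44), MGLL (0.59, 0.82) and ALOXE3 (at least 3.01, 2.5) lie at the upper right with PTGS2, while TBXAS1 lies in the upper left and PLA2G4C in the lower right. ALOXE3 on the x axis and PTGER1 on the y axis are drawn at bounds against a floor of 3 counts, because their DMSO libraries had 0 counts.

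A change shared by both lines was tested with edgeR's quasi-likelihood test, in which the lines serve as the only replicates, so its spread is that between the responses of the lines. Of 16100 genes tested, 1 (0.00621%) had an adjusted p under 0.05. Of the 29 other pathway genes tested, 0 were called, with a lowest adjusted p of 0.591 from edgeR, and 4 had an unadjusted p under 0.05 (PLA2G4A, MGLL, ALOXE3 and PTGIR), as had 7.14% of all genes tested. PTGIR had 0 and 1 counts in MDA-MB-231, so its p rests on SUM159 cells and shows no shared change. DESeq2 also called 0 of the 29, beside 96 (0.706%) of the 13603 genes with an adjusted p, which it left out for 2497. It gave 5 of the 29 an unadjusted p under 0.05, as it did 5.53% of all genes.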

How the data were processed

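The authors mapped paired-end reads to GRCh38 with STAR 2.5 and counted them per gene with HTSeq 0.6.1 in union mode, per the submitters' processing notes and the study's methods, and deposited whole-number counts without normalization. The submitters' notes also name edgeR 3.16.5. The annotation release and strand setting are not given in the sources used here, so overlapping antisense genes are named beside their partners. Symbols were matched by Ensembl identifier for 58207 of 58735 rows. Gene coordinates, exon lengths and overlaps are from GENCODE 44, and promoter windows from RefSeq GRCh38.p14.

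From these counts, edgeR 4.0.16 (R 4.3.3) gave log2 changes as differences of log2 CPM, using TMM scaling inside each line and a prior count of 0.125. Levels shown as CPM used TMM over the 4 libraries. A gene was compared in a line where its mean count reached 10, and called at 1.5-fold. Counting intervals are exact (Clopper-Pearson, 95%) for the fraction of each gene's reads found in the MBZ library. They cover counting error only, since PCR copies were not marked by molecular identifiers and are not independent. Where a library had 0 counts, a fold was bounded with a floor of 3 counts. Intervals for differences between lines are not exact. They use a normal approximation whose variance sums the reciprocals of the gene's counts in the 4 libraries, which is rough where a count is low.

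The shared test was edgeR's quasi-likelihood test with line and treatment, with Benjamini-Hochberg adjustment over all 16100 genes. DESeq2 1.42.0, other scalings, filters, thresholds and prior counts were alternatives. The interval and test functions were tested on simulated data. The 10 genes, the 45 pathway genes and the marker lists were chosen with earlier results of these data known, and 15 leukocyte genes were added after the values of PTPRC and CD14 were seen. All 10 genes are named, and LTA4H and PLA2G10 were added after their values were seen. Of the other pathway genes, those called in both lines, the 8 with the largest log2 changes in each line, and those under 3 counts in all libraries were named.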

Additional observations from a re-analysis of the deposited data

Results flagged for a closer look

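Of the 10 genes, 3 changed after MBZ with opposite signs in the lines, with counting intervals on opposite sides of 0. PTGES had a log2 change of -0.41 in MDA-MB-231 and 0.97 in SUM159 cells. PTGES2 had -0.37 and 0.19, and ABCC4 had 0.16 and -1.29, in the same order. With 1 library per condition the difference between the lines was not tested.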

How the results depend on the processing

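The log2 changes of the 10 genes had 18 values over both lines. With DESeq2 size factors, 17 of them moved by less than their counting error and none changed sign. Scaling by total counts raised the median over all genes (by 0.27 for MDA-MB-231 and 0.30 for SUM159 cells), moved 10 of the 18 values past their counting error, and changed the sign of HPGD in MDA-MB-231 and of PTGER4 in SUM159 cells, both of which were within 1.5-fold. The counts of genes past the threshold moved by more than 1.5 times as follows. With a mean of at least 100 counts, 0 of the 10 genes were lower in MDA-MB-231 (2 in the report) and 1 was higher in SUM159 cells (2 in the report). That setting ended the calls of SLCO2A1 and PTGER2 in MDA-MB-231 and of PTGS2 in SUM159 cells, leaving PTGES there. A fold change of 2 left 1 higher in SUM159 cells, PTGS2 in place of PTGES, and a minimum of 1 count gave 4, with HPGD and PTGER2 added. Of the other pathway genes, 7 were higher in MDA-MB-231, which became 14 with scaling by total counts, 19 with a minimum of 1 count and 4 with a mean of at least 100 counts. The 5 lower there became 2 with scaling by total counts and 2 with a fold change of 2. In SUM159 cells the 5 higher became 11 with a minimum of 1 count and 2 with a mean of at least 100 counts, and the 12 lower became 7 with scaling by total counts and 6 with a fold change of 2. Shares over all genes were not computed with scaling by total counts, a fold change of 2 or a minimum of 1 count. In the shared test, the 0 pathway genes called became 1 (PTGIR, lower, adjusted p 0.0373) when every gene with at least 1 count was tested. PTGIR had 0 and 1 counts in MDA-MB-231, so this call rests on SUM159 cells and shows no shared change. In that setting 298 of all genes were called. Genes with few counts (PTGER2, HPGD, and SLCO2A1 in MDA-MB-231) are limited by depth. No paired analysis was possible because the groups share 1 replicate number, where pairing means by that number within a line. The shared test does pair DMSO with MBZ through the cell line in its model, and without that term it also called 0 pathway genes, with 0 at an unadjusted p under 0.05. No library could be left out, since each condition has 1.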
